A study of Saccharomyces cerevisiae with 17 samples.

Results

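Listed peaks of 2 histone marks were examined at 38 genes of glucose repression and alternative carbon use in budding yeast, Saccharomyces cerevisiae, out of 6002 nuclear protein-coding genes. The genes were chosen by name. They comprise 20 enzymes and transporters for carbon sources other than glucose, 12 regulators, the hexokinase gene HXK2 and the 5 HAP transcription factor genes. The regulators are the activator genes CAT8, SIP4 and ADR1, the Snf1 kinase complex genes SNF1, SNF4, GAL83, SIP1 and SIP2, and MIG1, MIG2, MIG3 and REG1. All 38 were found in the gene table of assembly R64.

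The series profiled histone H3 dimethylated (H3K4me2) and trimethylated (H3K4me3) on lysine 4 by chromatin immunoprecipitation and sequencing (ChIP-seq). Cells of the BY4741A background were grown in YPD, a rich medium containing glucose, to an OD600 of about 1.0 and fixed with 2% formaldehyde. The titles of the precipitated samples carry the label LOG, read here as logarithmic growth. The 17 libraries were 16 precipitates from 4 genotypes, 2 antibodies and 2 replicates, with 1 input. Peak lists of 4 replicate 1 libraries were used, from wild-type Cps25 cells (cps25_WT) and cells without SET1 (set1delta), 1 library for each antibody in each genotype. Set1 is the only H3K4 methyltransferase of this yeast, and Cps25, encoded by SDC1, is a subunit of the same complex, COMPASS. The remaining 13 libraries, which include the cps25_A142D and cps25delta strains, were not analysed here. A group thus had a single list, replicate error could not be estimated, groups were not tested against each other, and each count describes these libraries.

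On glucose, yeast ferments and keeps most enzymes for other carbon sources switched off. The repressor Mig1 sits at their promoters while the kinase Snf1 is inactive. When glucose runs out, Snf1 removes Mig1 and turns on activators such as Cat8, Sip4 and Adr1, and the HAP factors drive respiratory genes. H3K4me3 is laid down at the start of genes as RNA polymerase II transcribes them, and H3K4me2 usually extends further into the gene.

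A gene was called marked when a listed peak covered at least 1 bp of the first 500 bp of its ORF. The wild-type lists held 4393 H3K4me2 and 4087 H3K4me3 peaks, and the set1delta lists 927 and 743. How many reads stand behind a peak is unknown. The ORF of SET1 lay under 687 bp of H3K4me2 peak and 509 bp of H3K4me3 peak in wild-type cells. It lay under 0 bp in either set1delta list, which says little, because only 8.58% of all ORFs carried a set1delta peak of either antibody. The ORF of SDC1 lay under 0 bp of H3K4me2 peak and 425 bp of H3K4me3 peak in wild-type cells. In set1delta cells it lay under 462 bp for the H3K4me2 antibody and 0 bp for the H3K4me3 antibody. The names of the wild-type lists say that set1delta peaks were taken out, and 354 and 258 peak numbers were absent from them. Where numbers are skipped around a gene, a wild-type peak near it may have been removed. Positions in a gene are counted in bp from 1 at the first base of the start codon. A score percentile is the rank of a peak by the authors' score within its own list, as a percentage of that list.

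Of the 38 genes, 18 were marked by H3K4me2 (47.4%, exact 95% interval over genes 31.0 to 64.2) and 15 by H3K4me3 (39.5%, 24.0 to 56.6) in wild-type cells. Over all 6002 genes the shares were 75.1% and 68.7%. Both marks were listed at 14 genes, against 66.2% of all genes, H3K4me2 alone at 4 (all genes 8.85%), H3K4me3 alone at 1 (all genes 2.52%) and neither at 19 (all genes 22.4%). In set1delta cells, 4 of the 38 genes carried a peak of the H3K4me2 antibody (all genes 4.75%), 3 a peak of the H3K4me3 antibody (all genes 3.40%) and 4 a peak of either (all genes 5.50%). Intervals cover counting over genes only.

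Counting a peak anywhere over the ORF raised the counts by 3 for each wild-type mark. H3K4me2 then lay over 21 of the 38 genes (all genes 76.0%) and H3K4me3 over 18 (all genes 69.4%). Both marks lay over 17 (all genes 66.9%), H3K4me2 alone over 4 (all genes 9.16%), H3K4me3 alone over 1 (all genes 2.55%) and neither over 16 (all genes 21.4%). ACS1, ADH2 and MLS1 were the 3 genes with a mark over the ORF and none in the first 500 bp, a pattern of 1.00% of all genes.

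**Figure D1:**
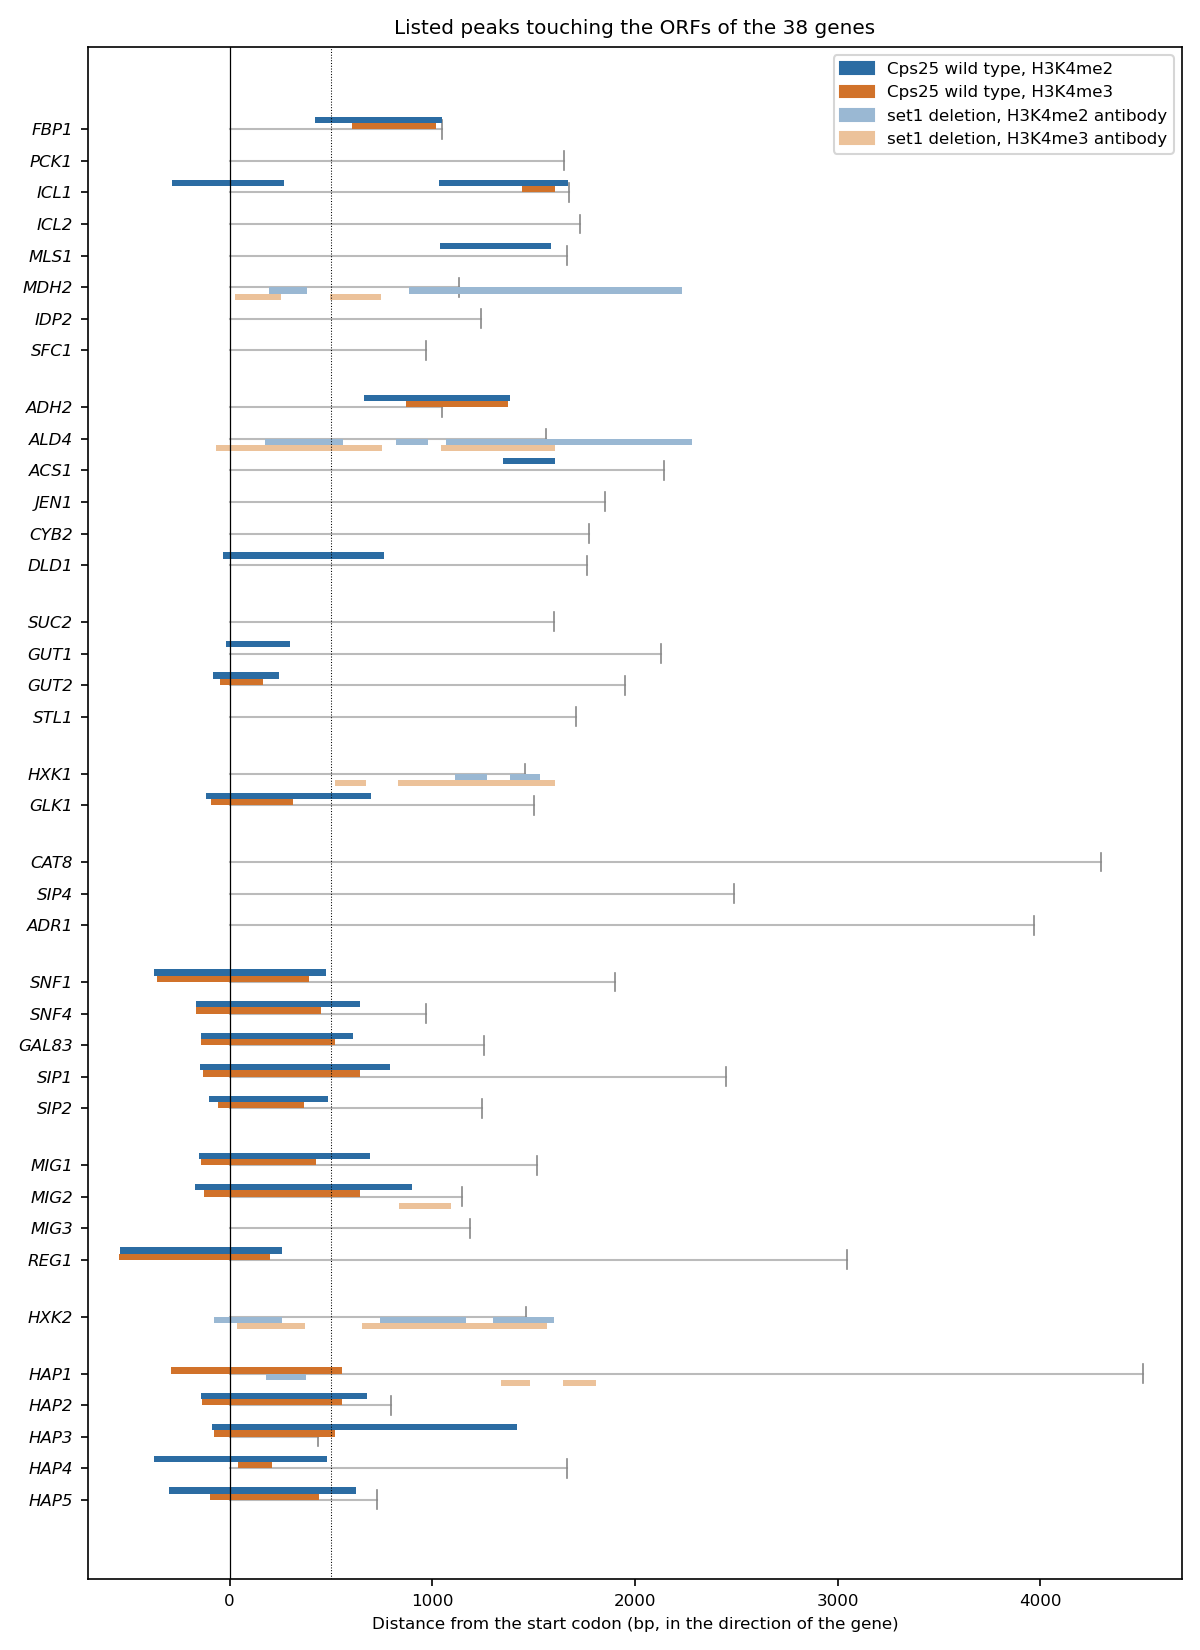
Listed peaks touching the ORFs of the 38 genes, grouped by role, by distance from the start codon in bp. Grey lines are ORFs ending at a tick, the dotted line marks 500 bp, dark bars are wild-type peaks and pale bars set1delta peaks. The Snf1 complex genes carry both wild-type marks across the start codon, where 66.2% of all genes have both in the first 500 bp. CAT8, SIP4, ADR1 and 14 of the 20 enzyme and transporter genes have neither mark there, against 22.4% of all genes. Of these 14, ALD4 and MDH2 carry set1delta peaks in the first 500 bp.

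The genes grouped here under gluconeogenesis and the glyoxylate cycle mostly lacked a peak at their start. These pathways build sugar from compounds of 2 carbon atoms, and the group also takes in related enzymes and a carrier. Of the 8 genes, 2 were marked by H3K4me2 (all genes 75.1%) and 0 by H3K4me3 (all genes 68.7%). PCK1, phosphoenolpyruvate carboxykinase (YKR097W, chromosome XI, 631152 to 632801), had no listed peak over its ORF in any of the 4 lists. The same held for IDP2, the cytosolic NADP-dependent isocitrate dehydrogenase, for SFC1, the mitochondrial carrier of succinate and fumarate, and for ICL2, a mitochondrial lyase related to isocitrate lyase. Peak numbers were skipped around SFC1 in both wild-type lists and around ICL2 in the H3K4me3 list, and around PCK1 and IDP2 in neither.

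FBP1, fructose bisphosphatase (YLR377C, chromosome XII, 873746 to 874792), carried its peaks at the far end of the ORF. The H3K4me2 peak ran from position 425 to 2 bp past the stop codon, at score percentile 31.5, so only 76 bp of the first 500 were covered. The H3K4me3 peak ran from position 605 to 1017, at percentile 23.3, and did not reach the first 500 bp. The start of FBP1 was thus free of listed peaks, and the gene counted as marked by H3K4me2 through the edge of a peak centred downstream.

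ICL1, isocitrate lyase, the first enzyme of the glyoxylate cycle (YER065C, chromosome V, 285241 to 286914), had a low H3K4me2 peak over its start codon. This peak reached from 283 bp upstream to position 267, at percentile 8.72. A second H3K4me2 peak lay from position 1036 to 1672, at percentile 14.2, with an H3K4me3 peak inside it from 1445 to 1605, at percentile 3.99. H3K4me3 was therefore listed near the stop codon of ICL1 and not at its start. MLS1, malate synthase, the second enzyme of the cycle (YNL117W, chromosome XIV, 406358 to 408022), had an H3K4me2 peak from position 1038 to 1586, at percentile 9.38, and no other peak.

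Genes for the use of ethanol, acetate and lactate showed the same lack of peaks at the start. Of the 6, 1 was marked by H3K4me2 (all genes 75.1%) and 0 by H3K4me3 (all genes 68.7%). ADH2, the alcohol dehydrogenase that oxidizes ethanol (YMR303C, chromosome XIII, 873291 to 874337), had no peak in its first 500 bp. Its H3K4me2 peak ran from position 662 to 337 bp past the stop codon, at percentile 38.3, and its H3K4me3 peak from 874 to 325 bp past the stop codon, at percentile 26.9. ACS1, an acetyl-CoA synthetase (YAL054C, chromosome I, 42881 to 45022), had an H3K4me2 peak from 1350 to 1608 at percentile 5.51 and no H3K4me3 peak. JEN1, the lactate and pyruvate permease, and CYB2, which oxidizes L-lactate in mitochondria, had no peak over the ORF in any list, with H3K4me3 numbers skipped around JEN1 and H3K4me2 numbers around CYB2.

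DLD1, the mitochondrial D-lactate dehydrogenase (YDL174C, chromosome IV, 145826 to 147589), was the gene of this group with a peak at its start. Its H3K4me2 peak covered all of the first 500 bp, from 33 bp upstream to position 760, at percentile 12.8. No H3K4me3 peak was listed over the gene, and no peak number was skipped there. DLD1 thus had a low-scoring H3K4me2 peak alone.

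The glycerol genes stood at the low end of the scores, and the invertase and glycerol importer genes had no peak. SUC2, which encodes the invertase that splits sucrose, and STL1, a glycerol and proton symporter, had no listed peak over the ORF in any list and no skipped number around them. GUT1, glycerol kinase (YHL032C, chromosome VIII, 36379 to 38508), had an H3K4me2 peak from 19 bp upstream to position 296, at percentile 3.62, with 1 H3K4me2 number skipped around the gene. GUT2, the mitochondrial glycerol phosphate dehydrogenase (YIL155C, chromosome IX, 51759 to 53708), had an H3K4me2 peak from 84 bp upstream to position 242, at percentile 16.4. It also had an H3K4me3 peak from 47 bp upstream to position 166, at percentile 1.22. Both enzymes of the pathway were marked over the start codon, GUT2 by both marks and GUT1 by H3K4me2.

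GLK1, glucokinase (YCL040W, chromosome III, 50838 to 52340), was the enzyme gene with the highest scores. Its H3K4me2 peak covered the first 500 bp from 118 bp upstream to position 699, at percentile 57.6. Its H3K4me3 peak was much shorter, from 92 bp upstream to position 313, at percentile 37.3. HXK1, the hexokinase gene that glucose represses, had no wild-type peak of either mark.

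The 3 genes for activators had no listed mark, where 22.4% of all genes had neither mark in the first 500 bp. CAT8 (YMR280C, chromosome XIII, 827028 to 831329) and SIP4 (YJL089W, chromosome X, 265926 to 268415) encode zinc cluster proteins that switch on gluconeogenic genes. ADR1 (YDR216W, chromosome IV, 895035 to 899006) encodes a zinc finger activator of ADH2 and of fatty acid oxidation genes. None of the 3 had a wild-type peak anywhere over ORFs of 4302, 2490 and 3972 bp, and no peak number was skipped around them in either list. CAT8 had a set1delta peak of the H3K4me3 antibody within 500 bp before its start codon, and none over its ORF.

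All 5 genes of the Snf1 kinase complex carried both marks across the start codon. In the first 500 bp, both marks were listed at 66.2% of all genes. SNF1, the catalytic subunit (YDR477W, chromosome IV, 1412373 to 1414274), had an H3K4me2 peak from 372 bp upstream to position 478, at percentile 43.1, and an H3K4me3 peak from 356 bp upstream to position 391, at percentile 88.9. SNF4, the activating gamma subunit (YGL115W, chromosome VII, 292033 to 293001), had percentiles of 71.5 for H3K4me2 and 60.8 for H3K4me3. The beta subunits, which decide where the kinase goes and what it binds, covered a wide range. GAL83 stood at 91.7 and 88.2, SIP1 at 50.7 and 52.3 and SIP2 at 21.2 and 14.6 for H3K4me2 and H3K4me3. SNF1 was the member of the complex whose ranks differed most between the marks, and SIP2 was lowest in both.

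MIG1, the zinc finger repressor of SUC2 and many other genes (YGL035C, chromosome VII, 431548 to 433062), carried an H3K4me2 peak from 151 bp upstream to position 692 and an H3K4me3 peak from 141 bp upstream to position 428, at percentiles 46.2 and 39.9. MIG2, a related repressor, had peaks to positions 901 and 645, at percentiles 41.4 and 33.0. REG1, the regulatory subunit that directs the phosphatase Glc7 against Snf1 (YDR028C, chromosome IV, 497835 to 500879), had high-scoring peaks at percentiles 89.3 and 74.8. These reached 543 and 547 bp upstream of its start codon and also held the start codon of the divergent gene YDR029W. They covered 261 and 198 bp of the REG1 ORF, so whether they belong to REG1 or to its neighbour cannot be told apart.

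MIG3, a further zinc finger protein of the family, carried neither mark, and no number was skipped around it. MIG2 and MIG3 are paralogs from the duplication of the yeast genome, and so are SIP2 and GAL83. Both pairs lie side by side: MIG2 is followed by SIP2 after a gap of 331 bp on chromosome VII, and MIG3 by GAL83 after 459 bp on chromosome V. Of these 4 genes, MIG3 was the one without marks, although its tandem neighbour GAL83 had the highest H3K4me2 score of the Snf1 complex.

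The HAP genes, whose products activate respiratory genes, were marked by H3K4me3 in 5 of 5 cases (all genes 68.7%). H3K4me2 was listed at 4 of them (all genes 75.1%). HAP2, a DNA-binding subunit of the CCAAT-binding complex (YGL237C, chromosome VII, 52731 to 53528), had the highest H3K4me2 score of all 38 genes, at percentile 97.7, with H3K4me3 at 82.1. HAP3 and HAP5, the other DNA-binding subunits, stood at 96.1 and 46.1 for H3K4me2 and at 74.2 and 31.0 for H3K4me3. The HAP3 ORF is only 435 bp long, and its H3K4me2 peak of 1502 bp also held the start codon of the next gene, PIM1.

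HAP4, the activating subunit, whose gene glucose represses (YKL109W, chromosome XI, 232227 to 233891), stood apart from the other subunits of the complex. Its H3K4me2 peak ran from 374 bp upstream to position 481 at percentile 18.1. Its H3K4me3 peak covered only positions 43 to 208 and was at percentile 0.905 of the list. Both marks were thus listed at HAP4, at the lowest scores of the HAP genes.

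HAP1 encodes a haem-responsive activator, and in the strain lineage of the reference genome the gene carries a Ty1 transposon near its end. It had an H3K4me3 peak from 290 bp upstream to position 556, at percentile 71.1, and no listed H3K4me2 peak (YLR256W, chromosome XII, 646415 to 650923). In set1delta cells an H3K4me2 antibody peak lay at positions 181 to 377, and 1 H3K4me2 number was skipped there in the wild-type list. Whether HAP1 lacked H3K4me2 or lost a listed peak to the removal of set1delta peaks cannot be told apart.

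Peaks in cells without Set1 lay over the ORFs of 6 of the 38 genes (all genes 8.58%), 5 for the H3K4me2 antibody (all genes 6.75%) and 6 for the H3K4me3 antibody (all genes 5.48%). Of these 6 genes, 4 encode enzymes of sugar, acetaldehyde or malate metabolism. ALD4, the mitochondrial acetaldehyde dehydrogenase (YOR374W, chromosome XV, 1039840 to 1041399), lay under 1031 bp of H3K4me2 antibody peaks and 1267 bp of H3K4me3 antibody peaks. HXK2, the main hexokinase on glucose, which also takes part in repression with Mig1 (YGL253W, chromosome VII, 23935 to 25395), lay under 850 and 1142 bp. HXK1 lay under 231 and 777 bp, all beyond its first 500 bp, and MDH2, the cytosolic malate dehydrogenase of gluconeogenesis, under 436 and 479 bp. HAP1 lay under 197 and 306 bp, and MIG2 under 260 bp of the H3K4me3 antibody alone. HXK1 and HXK2 are close relatives in sequence, and the sources used here do not say how reads shared between them were placed.

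The absence of wild-type peaks at these enzyme genes has different standing from gene to gene. At MDH2, 2 numbers were skipped in each wild-type list, and at HXK2, 1 in each, so a removed peak cannot be told apart from none. At ALD4 and HXK1 no number was skipped, so no sign of a removed wild-type peak was found there. In all, 13 of the 19 genes with neither mark had no skipped number in either list, and 10 of these also had no set1delta peak between 500 bp before and 1000 bp after the start codon. The 10 were PCK1, MLS1, IDP2, ADH2, ACS1, SUC2, STL1, SIP4, ADR1 and MIG3.

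Set side by side, a smaller share of the enzymes and transporters than of the regulators was marked. H3K4me2 was listed at 6 of 20 enzyme and transporter genes (30.0%, 11.9 to 54.3) and at 8 of 12 regulators (66.7%, 34.9 to 90.1), beside 75.1% of all genes. H3K4me3 was listed at 2 of 20 (10.0%, 1.23 to 31.7) and 8 of 12 (66.7%, 34.9 to 90.1), beside 68.7%. In the first 500 bp the intervals of the groups overlap for H3K4me2 and do not for H3K4me3. Over the whole ORF they overlap for H3K4me3 too, at 5 of 20 (8.66 to 49.1) and 8 of 12 (34.9 to 90.1). Whether intervals overlap is not a test of the groups, because genes within 1 library are not replicates. The genes were also chosen with earlier results of these data known. The regulators were near the share of all genes, and the enzymes and transporters were below it for both marks. Of the 6 enzyme genes with H3K4me2, 4 had no H3K4me3 in the first 500 bp. The other two, GUT2 and GLK1, had both. All 8 marked regulators had both, and so did 3975 of the 4506 genes with H3K4me2 in all.

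**Figure D2:**
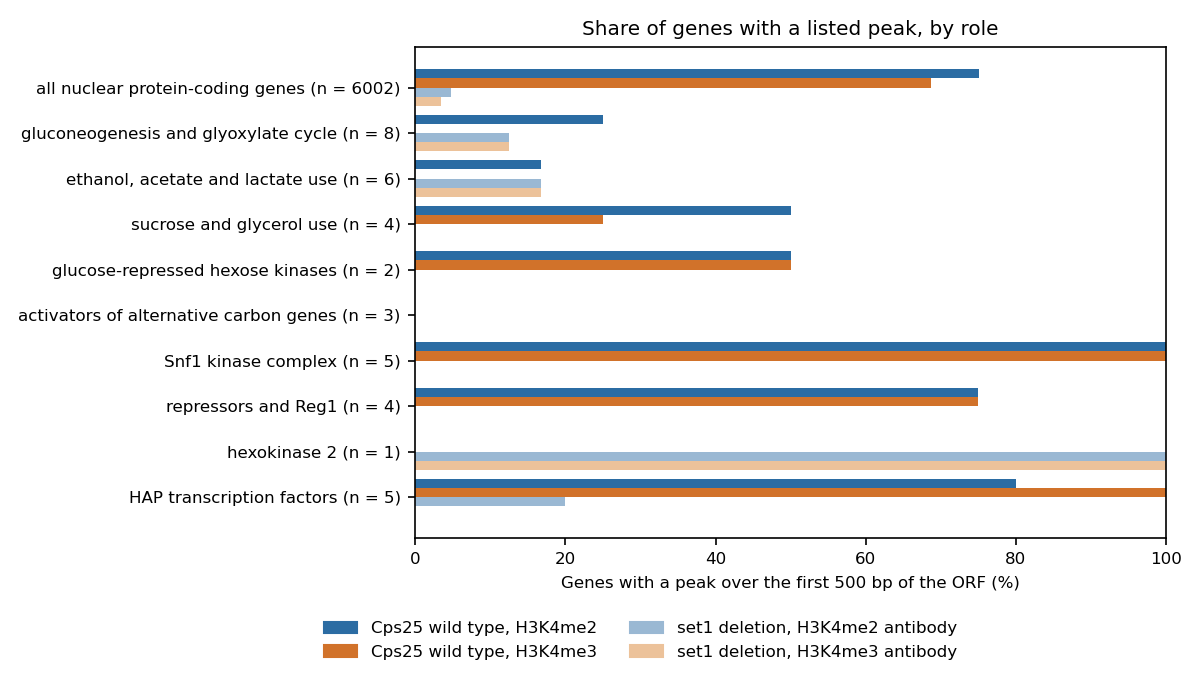
Share of genes, in percent, with a listed peak over the first 500 bp of the ORF, by role, with the number of genes and all 6002 nuclear protein-coding genes on top. The Snf1 complex stands at 100% for both wild-type marks and the activators at 0, and hexokinase 2 is 1 gene with set1delta peaks only.

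The scores of the peaks were also lower at enzyme genes. The 6 H3K4me2 peaks at enzyme genes had a median percentile of 14.6 (range 3.62 to 57.6), whereas those of the 8 marked regulators had a median of 48.5 (21.2 to 91.7) and those of 4506 marked genes in all a median of 53.9. For H3K4me3 the percentiles of GUT2 and GLK1 were 1.22 and 37.3, and the regulators had a median of 56.5 (14.6 to 88.9), beside 52.9 for all marked genes. Apart from GLK1, the marked enzyme genes were thus in the lower 50% of the H3K4me2 list.

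**Figure D3:**
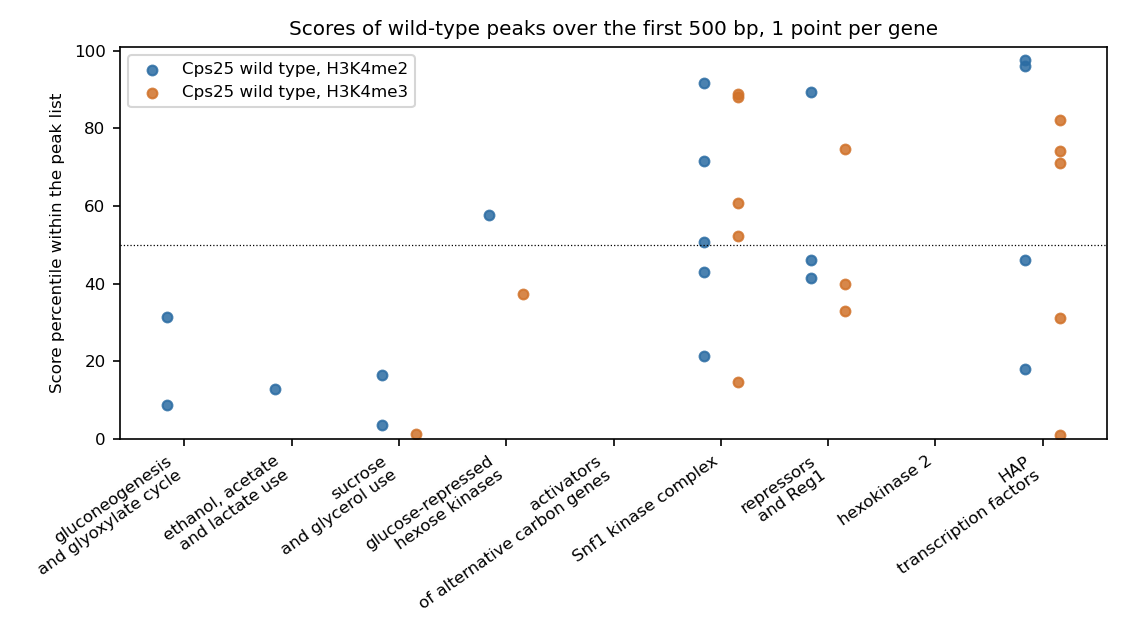
Score percentile within the list of the wild-type peak over the first 500 bp, 1 point per gene and mark, by role. The dotted line is the median of the list, and every enzyme gene other than GLK1 (57.6 for H3K4me2) lies under it.

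Coverage shortly after the start codon was also lower in the enzyme and transporter genes. In the last step measured it was above that of all genes for H3K4me2 and near it for H3K4me3. Between 200 and 250 bp after it, H3K4me2 peaks covered 24.2% of the bases in the enzyme and transporter genes, 66.7% in the regulators and 72.5% in all genes. H3K4me3 peaks covered 5.0%, 58.3% and 64.9% there. In the last step measured, from 1450 to 1500 bp, H3K4me2 peaks covered 28.0% in the enzyme and transporter genes, 16.7% in the regulators and 18.9% in all genes. H3K4me3 peaks covered 15.0%, 16.7% and 15.1% in that step. Bases this far downstream can lie beyond the stop codon in the next gene.

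**Figure D4:**
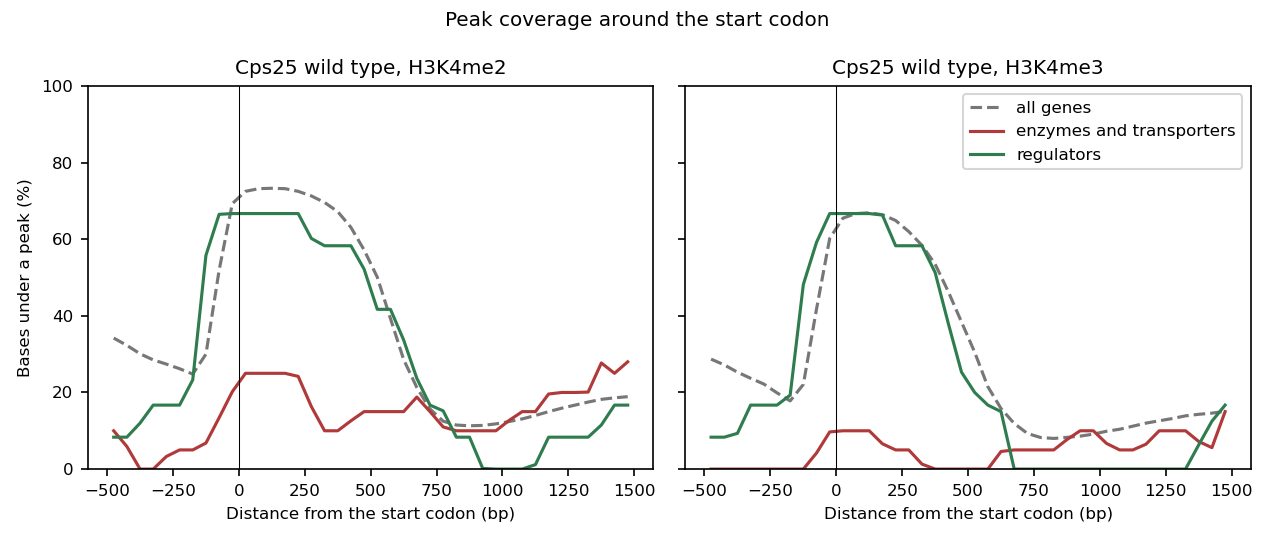
Share of bases under a wild-type peak, in percent, in 50 bp steps from the start codon, for H3K4me2 (left) and H3K4me3 (right). Between 200 and 250 bp after the start codon the enzymes and transporters lie at 24.2% for H3K4me2 and 5.0% for H3K4me3, below the regulators and all genes, and in the last step for H3K4me2 they lie above both.

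Several enzyme genes carried peaks over the far part of the ORF. Among ORFs of at least 1000 bp, 5 of 19 enzyme and transporter genes had an H3K4me2 peak centred on the downstream 50% of the ORF, or beyond, that held no start codon (26.3%). The 5 were FBP1, ICL1, MLS1, ADH2 and ACS1. Of the regulators 0 of 11 had one, and of all 3592 ORFs of that length 2.39% did. For H3K4me3 the counts were 3 of 19 (FBP1, ICL1 and ADH2) and 0 of 11, beside 1.09% of all. This definition was chosen after the peaks of these genes had been seen, so the counts only describe them.

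The next gene downstream lay on the same strand in 4 of these 5 cases, and the share over all genes was not counted. By the definition used, no start codon could lie inside these peaks. PSY3 follows FBP1 after 191 bp, DMA2 follows MLS1 after 318 bp, YME2 follows ADH2 after 665 bp and VHR2 follows ICL1 after 1018 bp. PSY3, DMA2 and YME2 carried both marks in their own first 500 bp, and VHR2 carried H3K4me2 alone. ACS1 converges with PEX22, which carried both marks, 161 bp away. Which transcript these peaks belong to was not tested.

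Where both marks were present, the H3K4me2 peak ended further downstream than the H3K4me3 peak in 14 of 14 genes. At HAP3 both peaks covered the whole ORF of 435 bp and ended past its stop codon. The median difference was 164 bp (quartiles 95.5 and 262), beside 82.0 bp over 3975 genes with both marks in all, where H3K4me2 ended further in 3757. The smallest difference was 63 bp at REG1 and the largest 898 bp at HAP3, whose H3K4me2 peak ran into PIM1. GLK1 followed with 386 bp, HAP4 with 273 bp, MIG1 with 264 bp and MIG2 with 256 bp. Over the 14 genes the median last position was 633 bp for H3K4me2 and 434.5 bp for H3K4me3. Each mark had 1 library of unknown depth, so depth and enrichment cannot be told apart as sources of these edges.

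**Figure D5:**
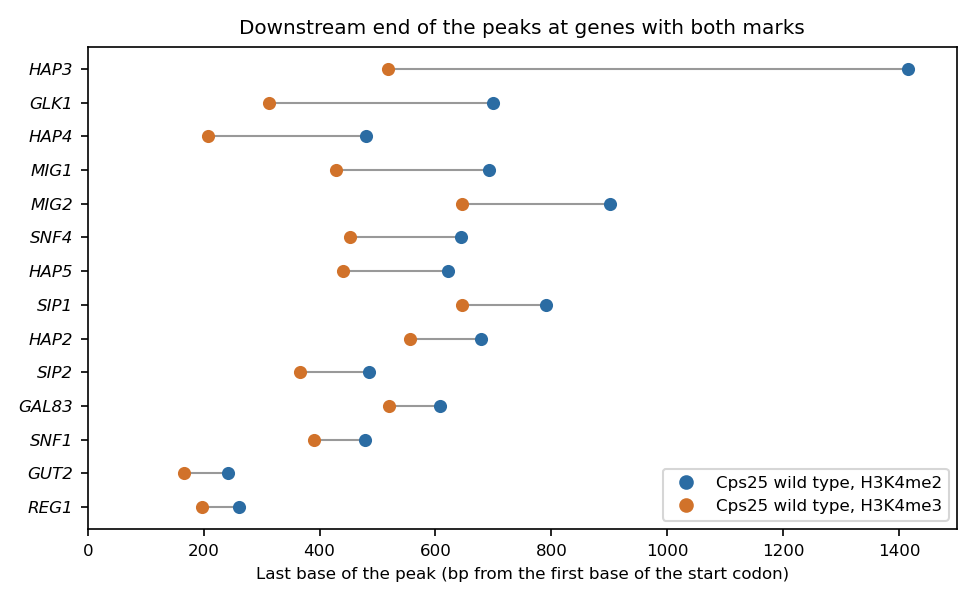
Last base of the wild-type peak at each of the 14 genes with both marks, in bp from the first base of the start codon, sorted by the difference. H3K4me2 (blue) lies beyond H3K4me3 (orange) in every gene shown, by 63 bp at REG1 and by 898 bp at HAP3.

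The genes without marks included most of those near chromosome ends. Of the 19 genes with neither mark, 6 lay within 40 kb of a chromosome end (31.6%), against 1 of 19 genes with a mark (5.26%). All genes with neither mark gave 22.1% and all genes with a mark 5.03%. HXK1 was 15110 bp, STL1 21997 bp, JEN1 22233 bp, HXK2 23934 bp, PCK1 30488 bp and SUC2 37384 bp from the nearer end of its chromosome, with the right end taken as the end of the last gene or listed peak. GUT1, at 36378 bp, was the marked exception. The median gap to the next gene upstream was 771 bp for the 19 genes without marks and 448 bp for those with marks, beside 670 and 415 bp for all genes.

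Marked neighbours were about as common at the unmarked genes as at all genes with neither mark. Of the 19 unmarked genes, 10 had a marked gene next to them upstream and 12 downstream, and 15 had at least 1 of these (78.9%, beside 80.1% of all genes with neither mark). Of the 19 marked genes, 18 had a marked neighbour (94.7%, beside 96.8% of all genes with a mark). MLS1, ADH2, ACS1 and ALD4 stood between neighbours that both carried both marks, and so did MIG3 and HXK2. ICL2, JEN1, STL1 and CAT8 were the 4 genes with no mark at the gene itself or at either neighbour.

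For several repressed enzymes the yeast genome holds another enzyme of the same reaction, and the pairs were compared. ACS2, the acetyl-CoA synthetase used on glucose, MDH1, the mitochondrial malate dehydrogenase, IDP1, the mitochondrial isocitrate dehydrogenase, and DAL7, a malate synthase of allantoin use, carried both marks. Their counterparts ACS1, IDP2 and MLS1 carried neither in the first 500 bp. MDH2, the counterpart of MDH1, had no listed wild-type peak either, but it carried set1delta peaks of both antibodies there, and 2 numbers were skipped around it in each wild-type list. ACS2 stood at percentiles 45.0 for H3K4me2 and 72.6 for H3K4me3, and MDH1 at 83.7 and 70.5. ADH1, ALD6 and HXK2, counterparts of ADH2, ALD4 and HXK1, had no wild-type peak, and each carried set1delta peaks of both antibodies. Both set1delta lists covered all 1503 bp of the ALD6 ORF. In these 3 pairs, and in that of MDH1 and MDH2, the wild-type lists therefore give no comparison.

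A wider list of 48 other genes of carbon source control was marked by H3K4me2 at 35 genes (72.9%) and by H3K4me3 at 23 (47.9%), beside 75.1% and 68.7% of all genes. The 8 genes for the GID ubiquitin ligase, which marks gluconeogenic enzymes for degradation once glucose returns, carried H3K4me2 in 8 cases, and 7 carried H3K4me3, at up to percentile 48.1 (GID8) and 44.3 (FYV10). UBC8, its ubiquitin-conjugating enzyme, was the one with H3K4me2 alone. TUP1 and CYC8, the corepressor that Mig1 recruits, stood near the top of both lists, CYC8 at 99.1 and 98.3 and TUP1 at 98.4 and 96.2. NRG1, NRG2, USV1 and GSM1, other transcription factors of carbon control, had H3K4me2 alone, at percentiles between 2.14 and 11.7. USV1 counted only through 11 bp of a peak at positions 490 to 674. OPI1, RGT1, RDS2 and ERT1, further such factors, had both marks, with H3K4me2 at percentiles 97.7, 77.5, 63.9 and 39.0. Of the 10 genes for the corepressor and other factors, 10 carried H3K4me2 and 6 H3K4me3.

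Among the kinases that activate Snf1, SAK1 and ELM1 carried both marks and TOS3 neither. STD1, a regulator of glucose sensing, and ELM1 had the highest H3K4me3 scores among the 7 genes around Snf1, at 79.7 and 69.7. REG2, a relative of REG1, had no peak. Of 23 further enzymes and carriers of non-fermentable carbon, 12 had H3K4me2 (52.2%, all genes 75.1%) and 6 had H3K4me3 (26.1%, all genes 68.7%). MAE1, the malic enzyme, and DLD2 had the highest H3K4me3 scores among them, at 61.8 and 37.9. PYC1, CAT2, YAT1, CRC1, ADY2, DAK2, ALD2, ALD3 and ALD5 had no wild-type peak over the ORF, and ALD5 carried set1delta peaks of both antibodies.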

How the data were processed

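Peak lists of 4 libraries, each replicate 1 of its group per the sample titles, were used. Bowtie 1.1.2, MACS2 2.1.1 and the build sacCer3 are named in the submitters' processing notes, without order or settings. The sources used here do not say whether the input served as control. The authors deposited a score per peak on a scale that is not stated, and it was used only to rank peaks within a list. Read depth is unknown.

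Gene positions were read from RefSeq's R64 annotation table. Strand was read from the systematic name. Of 4018 deposited distances to a known gene, 99.9% were met within 2 bp, so the builds match. Members and lists were chosen with earlier results of these data known. All members are named. From the wider list, up to 2 genes a role with the highest H3K4me3 score and all without a peak over the ORF are named. Others (OPI1, RGT1, RDS2, ERT1, the 4 factors with H3K4me2 alone, UBC8 and SAK1) were added after their values were seen. Neighbours are the nearest genes of the table that do not overlap. In genes with several peaks, the one covering most of the window was measured. Alternatives changed the window, the minimum overlap and the score threshold, or left out genes near set1delta peaks. Intervals are exact Clopper-Pearson at 95%. Python 3.11.15, numpy 2.4.6, pandas 2.3.3, scipy 1.17.1 and matplotlib 3.10.9 were used. Overlaps were checked against bedtools 2.31.1 on 20 simulated and 4 real lists, with 0 differing. Gene ontology tables were not used.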

Additional observations from a re-analysis of the deposited data

How the results depend on the processing

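No paired analysis was possible because each group had 1 peak list and no result comes from a test, and no replicate could be left out. Restricting the lists to the upper 50% by score left H3K4me2 at 7 and H3K4me3 at 8 of the 38 genes, at 1 and 0 of the 20 enzymes and transporters, and at 4 and 5 of the 12 regulators, where all genes fell to 40.7% and 36.6%. In set1delta cells it left 0 genes for the H3K4me2 antibody and 1 for the H3K4me3 antibody (all genes 1.52% and 1.22%). Over the whole ORF, H3K4me3 was listed at 5 enzymes and transporters in wild-type cells (all genes 69.4%), and the H3K4me3 antibody at 6 of the 38 genes in set1delta cells (5.48%). With 50% of the window covered, H3K4me3 was listed at 1 enzyme gene (all genes 63.4%), and the set1delta H3K4me2 antibody at 2 of the 38 genes (2.32%). A wider window can only add genes, and a larger minimum overlap or a score threshold can only remove them. In all, 32 of 44 alternatives left the count within 1.5 times, or the median edge difference between the quartiles of the genes, 12 moved it further and 0 reversed it. A count of genes cannot change sign, so the 0 reversals say nothing about the counts. Why the counts fell by different amounts under the score threshold was not tested. Among genes with no set1delta peak of either antibody nearby, which is an alternative added once the data had been seen, H3K4me2 and H3K4me3 were listed at 6 and 2 of 17 enzymes and transporters and at 6 and 6 of 9 regulators, beside 80.7% and 72.5% of all genes so restricted.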

Other observations

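The nearest gene deposited with each H3K4me2 peak was seldom the gene whose start codon the peak held. Of 3716 H3K4me2 peaks that held exactly 1 start codon, 4 were named for that gene (0.108%). Among the 15 such peaks at the genes described here, 0 were. The SNF4 peak was assigned to YGL114W, the next gene downstream, the MIG2 peak to SIP2, the GAL83 peak to CHO1 and the GLK1 peak to YCL041C. A count of genes taken from that column would therefore differ from one taken from start codons.

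By the deposited cluster numbers, the H3K4me2 peaks at REG1 and HAP3 belonged to cluster 1, which held 18.9% of the 4393 peaks, and the other H3K4me2 peaks touching the ORFs of the 38 genes to cluster 2. Among the peaks at the 38 genes, these were the ones that also held the start codon of another gene, YDR029W and PIM1. The wider list did not show this pattern. There, the cluster 1 peaks at CYC8 and TUP1 held no other start codon. The cluster 2 peaks at FYV10 and RDS2 also held the start codons of FMC1 and COX11.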
